A study of Drosophila melanogaster with 2 samples.

Results

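The 37 genes described here encode the core machinery of DNA replication in *Drosophila melanogaster*, and they were looked up in a map of the transcription factor Gooseberry (gsb) in embryos. The list was drawn up by gene name, and all 37 were found among the 13945 protein-coding genes that Ensembl release 115 places on the 6 main chromosome arms. Of these, 36 matched by symbol, and RpA-70 was matched as RPA1 through a RefSeq synonym and identical coordinates. They fall into 8 roles, with 5 subunits of the origin recognition complex, 3 licensing factors, 6 subunits of the MCM helicase, 5 genes of GINS and Mcm10, 8 of the DNA polymerases and primase, 5 of the sliding clamp and its loader, 3 of the single-strand binding protein RPA and 2 of ribonucleotide reductase.

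The assay was chromatin immunoprecipitation followed by sequencing (ChIP-seq) on whole embryos aged 0 to 18 h, taken from a fly strain with an insertion that expresses gsb fused to enhanced green fluorescent protein (gsb-eGFP). Chromatin was sonicated to 200 to 800 bp and precipitated with an anti-GFP antibody, per the labels, although another field of the same labels names the antibody target as gsb. There was 1 group of 2 biological replicates, so no comparison between treatments was made. The control experiment that the labels mention was not read here. Whether the deposited signal already takes a control into account is not given in the sources used. A whole embryo mixes all its cell types and the collection spans most of embryogenesis, so a promoter bound in fewer cells and one bound more weakly in each cell cannot be told apart.

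Replication begins when the origin recognition complex, Cdc6 and the Cdt1 protein load the MCM helicase onto DNA, a step called licensing, which geminin blocks once a cell has entered S phase. The loaded helicase is switched on together with GINS, primase and DNA polymerase alpha lay down primers, and the other polymerases extend them on the sliding clamp PCNA while RPA covers exposed single strands and ribonucleotide reductase supplies the nucleotides. In flies many of these genes are controlled through the promoter factors DREF and E2F, and gsb itself is a Pax-type segment polarity protein with a paired domain and a homeodomain, known for patterning the embryonic epidermis and the nervous system.

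The deposited lists hold regions where the authors' peak caller found signal. A ranked list gives every candidate region, and a thresholded list gives those that passed a limit on the irreproducible discovery rate (IDR), which is low where a region keeps its place from one set of reads to another. The combined list, made from both replicates, held 2888 peaks, the conservative list 2721, the replicate 1 list 1877 and the replicate 2 list 1704, while the joint ranked list held 141664 candidate regions. Signal below is the caller's value for a region within its own list; the labels do not define its scale, so values from different lists are not compared in size. The median signal of the combined peaks on the main arms was 112. A gene was counted as having a promoter peak where a summit, the point of highest signal in a peak, lay within 1 kb of any of its transcription start sites (TSSs). Replicate values are read at the joint summit for genes with a promoter peak, and are otherwise the highest within 1 kb in that replicate, which need not be the same region, unless a summit is named.

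The replication genes PolD2, RnrS, geminin, Mcm2, RpA-70 and RfC38 had a promoter peak in the combined list, a share near that of genes in general. The count was 6 of 37, or 16.2% with an exact (Clopper-Pearson) 95% interval of 6.19% to 32.0%, and the share over all protein-coding genes was 13.8%. Because Mcm2 and RpA-70 share 1 peak, the 6 genes rest on 5 peaks. In the conservative list the count was 3 of 37 (8.11%, interval 1.70% to 21.9%), namely PolD2, RnrS and dpa, against 13.2% of all genes. The replicate 1 list also gave 3 of 37, namely PolD2, RnrS and geminin, against 9.89% of all genes. In the replicate 2 list, PolD2 and RnrS made 2 of 37 (5.41%, interval 0.661% to 18.2%), against 9.46% of all genes. PolD2 and RnrS were thus the members that passed in every list. Intervals of shares cover counting error only, and the reads behind each library are unknown from peak lists.

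**Figure D1:**
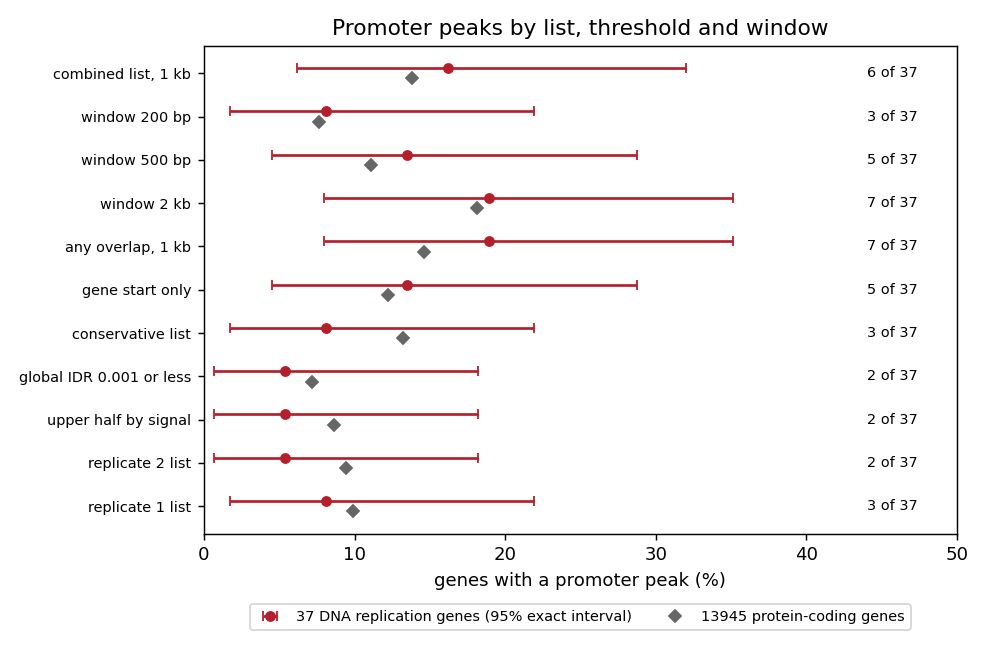
Share of genes with a promoter peak, in percent, for the 37 DNA replication genes (circles, with exact 95% intervals) above the share of all 13945 protein-coding genes (diamonds), by list, threshold and window. The members' count runs from 2 to 7 of 37, and the interval holds the share of all genes in each row.

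The sequences under the 3 peaks that can be shown are given here, each 201 bases centred on a summit. The peaks are those of PolD2, of RfC38, and of Mcm2 and RpA-70 together. Of these, the PolD2 peak alone passed in a replicate list or in the conservative list. RnrS, which passed in every list, and geminin, which passed in replicate 1, are not shown. The sequences come from the RefSeq copy of Release 6 (dm6) and are written 5′ to 3′ on the strand of the named gene. Capitals would mark any of 6 motifs searched on both strands, the DREF element (TATCGATA), the E2F site (TTTCCCGC, TTTCGCGC, TTTGCCGC or TTTGGCGC), the M1BP site (GGTCACACT), the paired domain core (GTCACGC), the homeodomain monomer (TAATTA) and ACAGTG, and in these windows they mark ACAGTG alone, read on the opposite strand in Mcm2. The PolD2 window lies at chr3L:1775428-1775628 on the plus strand, the Mcm2 window at chr3R:8264788-8264988 on the plus strand, and the RfC38 window at chr2L:11129447-11129647 on the minus strand.
PolD2: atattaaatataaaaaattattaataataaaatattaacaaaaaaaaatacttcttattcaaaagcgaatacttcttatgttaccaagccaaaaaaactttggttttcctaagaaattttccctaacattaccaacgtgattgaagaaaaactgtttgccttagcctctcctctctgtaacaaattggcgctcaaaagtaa
Mcm2: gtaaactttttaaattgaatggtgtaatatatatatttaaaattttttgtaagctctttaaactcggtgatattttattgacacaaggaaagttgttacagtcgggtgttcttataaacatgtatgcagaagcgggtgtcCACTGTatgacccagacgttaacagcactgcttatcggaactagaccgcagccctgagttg
RfC38: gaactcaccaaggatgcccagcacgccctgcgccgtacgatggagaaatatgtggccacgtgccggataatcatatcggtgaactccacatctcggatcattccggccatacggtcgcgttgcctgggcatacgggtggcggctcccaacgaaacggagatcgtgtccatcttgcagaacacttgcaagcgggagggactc
The first of these is A and T rich, with 26.9% G and C over the 201 bases. The Mcm2 window had 36.8%, and the RfC38 window, whose summit lies in coding sequence, had 58.2%.

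The strongest promoter peak of the list belonged to PolD2, which encodes the accessory subunit of DNA polymerase delta, the enzyme that extends the lagging strand. It lay on chromosome 3L at 1775388 to 1775602, with its summit 105 bp upstream of the PolD2 TSS. Its signal was 470.0 in the joint list, 241 in replicate 1 and 242 in replicate 2, which ranked it 120 of the combined list with a global IDR of 1e-05. Both replicates passed the region, and the gene's percentile among protein-coding genes was 99.0 in replicate 1 and 99.2 in replicate 2. CG13933, transcribed away from PolD2, has a TSS 381 bp from the same summit, so the peak stands between 2 genes and is nearer to PolD2. The catalytic subunit gene PolD1 had no promoter peak, and its highest region within 1 kb had a joint signal of 33.1, with 19.7 in replicate 2 and no region listed in replicate 1.

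RnrS, the small subunit of ribonucleotide reductase, had the second strongest promoter peak, and RnrL, the large subunit, had none. The RnrS peak lay on chromosome 2R at 11985420 to 11985783, 209 bp upstream of its TSS, with signal 152 in the joint list, 89.4 in replicate 1 and 61.3 in replicate 2. It ranked 928 in the combined list with a global IDR of 0.000605, and both replicates passed it. The divergent gene CG34231 has a TSS 406 bp from the summit. RnrL was the member without any candidate region within 1 kb in the joint ranked list, where 36 of 37 members (97.3%) and 89.8% of all genes had one. In replicate 2 alone a region of signal 22.4 was listed at RnrL, which put it at percentile 43.1 there. The nearest combined peak to an RnrL TSS was 54111 bp away.

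Among the licensing factors, geminin, the inhibitor of licensing, had a promoter peak and its target dup, the fly Cdt1, did not. The geminin peak lay on 2R at 6656176 to 6656539, with its summit 43 bp downstream of the nearer of 2 TSSs, in the 5′ untranslated exon sequence. It had signal 88.3 in the joint list, 54.0 in replicate 1 and 40.6 in replicate 2. It ranked 2057 of the combined list, with a global IDR of 0.00295, and passed in replicate 1 but not in replicate 2. For dup the highest region was 33 bp upstream of a TSS with joint signal 60.2, 37.9 in replicate 1 and 31.1 in replicate 2 at that summit. Its global IDR in the joint list was 0.0737, and dup was in none of the 4 thresholded lists. Cdc6, which helps load the helicase, had signal 44.6 in the joint list, 15.8 in replicate 1 and 22.7 in replicate 2. All 3 licensing genes had a candidate region, as did 89.8% of all genes, and the joint values fell in the order geminin, dup, Cdc6. With geminin, this role had a promoter peak at 1 of 3 in the combined list, beside 13.8% of all genes. So few genes cannot show a difference from either share.

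The MCM helicase genes, whose products form the ring that unwinds DNA, ranged from 14.5 at Mcm7 to 92.1 at dpa in joint signal. Mcm2 and RpA-70 are transcribed away from each other from TSSs 519 bp apart, and 1 peak on 3R at 8264706 to 8265069 lay between them, 82 bp upstream of Mcm2 and 437 bp upstream of RpA-70. Its signal was 82.3 in the joint list, 48.8 in replicate 1 and 30.1 in replicate 2, with rank 2285 and a global IDR of 0.00858. Neither replicate list nor the conservative list held it, so the call for both genes rests on the combined list. The fly Mcm4 gene, dpa, had a higher joint signal than Mcm2, at 92.1, with 49.5 in replicate 1 and 40.9 in replicate 2. Its global IDR in the joint list was 0.0138, and dpa passed in the conservative list only. That IDR comes from the ranked list that holds the combined peaks and need not be the one behind the conservative call. The dpa summit lay 73 bp upstream of the nearer of the 2 dpa TSSs and inside the gene, which starts at 7500145. A TSS of didum, a myosin gene, is 2 bp from a TSS of dpa, so the region lies near the starts of both genes. Which of the 2 dpa TSSs is that close to didum was not recorded.

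The other MCM genes had no promoter peak in any thresholded list. With Mcm2, this role had 1 of 6 in the combined list, beside 13.8% of all genes. Mcm3 had 58.5 in the joint list, 33.9 in replicate 1 and 24.6 in replicate 2. Mcm6 had 43.2, 29.8 and 25.1 in the same lists, and Mcm5 35.4, 14.9 and 24.3. Mcm7 had 14.5 in the joint list at a summit 379 bp downstream of the TSS, where replicate 1 had 6.18 and replicate 2 had 4.86. Replicate 2 listed a higher region, 29.6, at 952 bp downstream. Mcm3 also gives the nearest case outside the window, since a combined peak of signal 87.4 on the X chromosome at 5322593 to 5322956 had its summit 1080 bp from an Mcm3 TSS and 79 bp from a TSS of Rnp4F. The member furthest inside the window was RfC38, at 770 bp.

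**Figure D2:**
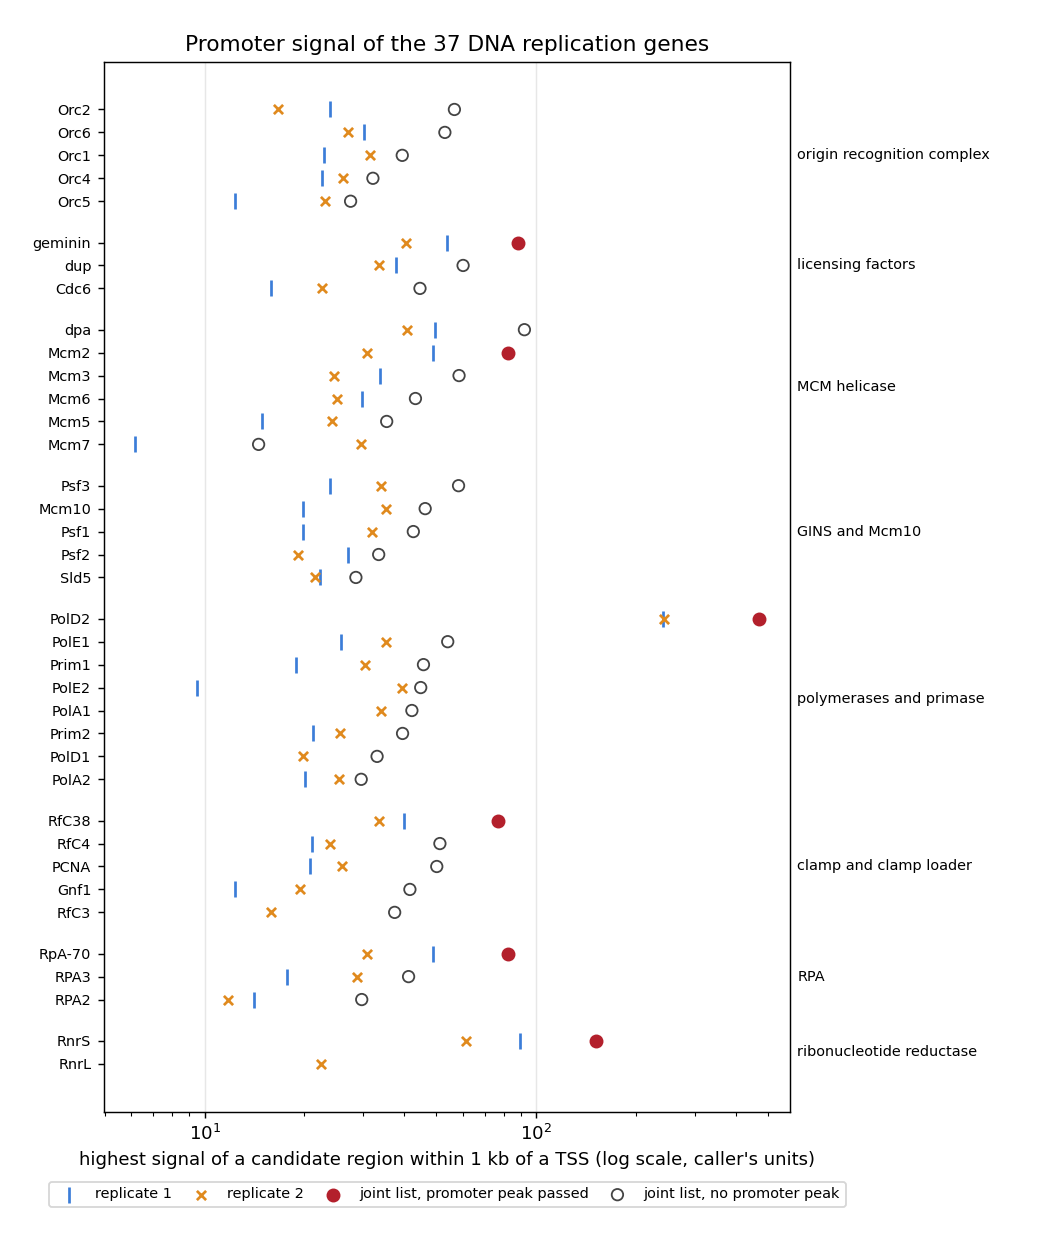
Highest signal of a candidate region within 1 kb of a TSS for each of the 37 genes, on a log scale in the caller's units, by role, in the joint list (filled where the gene had a combined promoter peak), replicate 1 (bars) and replicate 2 (crosses). PolD2 at 470.0 and RnrS at 152 stand apart from the other genes, and RnrL has a replicate 2 value only.

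The polymerase and primase genes other than PolD2 had joint signals between 29.7 and 54.1, all without a promoter peak. With PolD2, this role had 1 of 8, beside 13.8% of all genes. PolE1, the catalytic subunit of the leading strand polymerase epsilon, had 54.1 in the joint list, 25.8 in replicate 1 and 35.3 in replicate 2. Its partner PolE2 had 44.8, 9.51 and 39.5, which put it at percentile 15.8 of protein-coding genes in replicate 1 and 83.5 in replicate 2. The primase subunits Prim1 and Prim2 had joint signals of 45.7 and 39.5. The polymerase alpha genes PolA1 and PolA2 had 42.2 and 29.7, and PolA1 had no region listed in replicate 1.

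The origin recognition complex, which marks the sites where replication can start, had a promoter peak at 0 of 5 members, beside 13.8% of all genes. So few genes cannot show a difference from that share. Orc2 had the highest joint signal of the 5, at 56.6, with 23.9 in replicate 1 and 16.6 in replicate 2, and its region lay 851 bp downstream of the TSS with a global IDR of 0.559. Its percentile was 70.9 in the joint list, 53.2 in replicate 1 and 24.1 in replicate 2, so its place rests on which library is read. Orc6 had 53.0 in the joint list, 30.1 in replicate 1 and 27.1 in replicate 2, at a summit 836 bp upstream. Orc1, Orc4 and Orc5 had joint signals of 39.4, 32.2 and 27.6. Peaks of higher signal were found farther off, as at Orc1, whose nearest combined peak (signal 179) had its summit 3764 bp away and 190 bp from a TSS of Drat.

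GINS, a 4-part activator of the helicase, and Mcm10, which stabilises the active helicase, had a promoter peak at 0 of 5 genes. The share of all genes was 13.8%, and so few genes cannot show a difference from it. Psf3 led them with 58.3 in the joint list, 23.9 in replicate 1 and 34.0 in replicate 2. Mcm10 had 46.2, Psf1 42.6, Psf2 33.5 and Sld5 28.6 in the joint list. A combined peak of signal 144 had its summit 2792 bp from an Sld5 TSS, and the nearest TSS to it, at 72 bp, was that of RpL34a.

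In the clamp group, RfC38, a subunit of the loader that opens the clamp, had the weakest of the promoter peaks. It lay on 2L at 11129365 to 11129728, with its summit 770 bp downstream of the nearer of 2 TSSs, in the coding sequence of RfC38. With the gene start alone taken as TSS, RfC38 had no promoter peak, and its percentile fell from 85.2 to 34.1. The RfC38 peak had this support: signal 76.8 in the joint list, 39.9 in replicate 1 and 33.5 in replicate 2, with rank 2499 and a global IDR of 0.00717. Neither replicate list nor the conservative list held the RfC38 peak. Together with geminin, RfC38 was one of the members with a combined peak inside the gene body. PCNA, the clamp itself, had 50.1 in the joint list, 20.8 in replicate 1 and 25.9 in replicate 2, and no promoter peak. The other loader genes RfC4, Gnf1 (the large subunit) and RfC3 had joint signals of 51.2, 41.6 and 37.4. In the RPA group, RPA3 and RPA2, the smaller subunits, had 41.2 and 29.8, against 82.3 at the peak that RpA-70 shares with Mcm2.

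Ranked by their highest promoter signal among all protein-coding genes, the replication genes sat in the middle. The percentile of a gene is the share of protein-coding genes with a lower value plus an equal split of the ties, and genes with no region share the lowest place. The median percentile of the 37 members was 52.2, where all genes by construction centre on 50, and their median joint signal was 44.7 (n = 36) beside 46.0 (n = 12529). The median percentile was 43.9 in replicate 1 and 58.4 in replicate 2, so the replicates stood on opposite sides of the middle. Above the 75th percentile, where 25% of all genes lie, were 7 members (18.9%). PolD2 and RnrS alone of the members were above the 90th. By role the median percentile ran from 41.5 for the origin recognition complex to 74.8 for the 3 licensing factors.

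**Figure D3:**
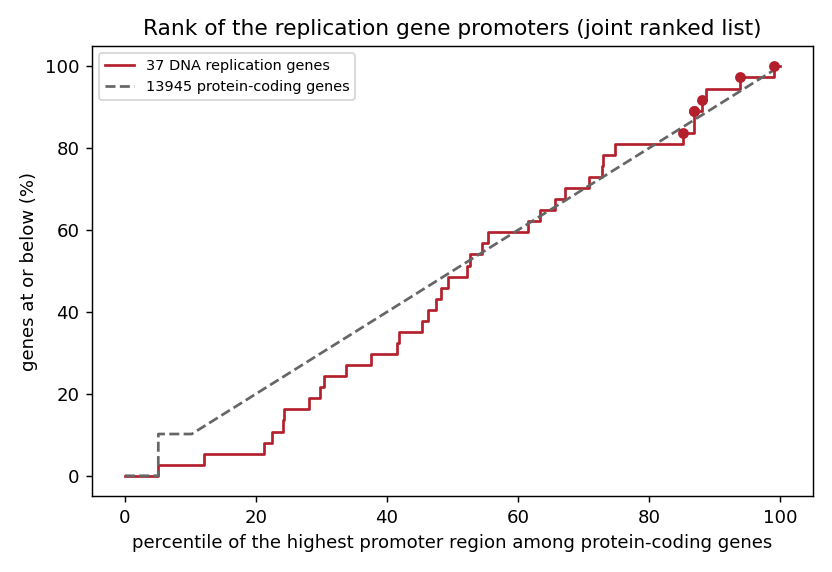
Cumulative share of genes (vertical, in percent) against the percentile of their highest promoter signal among protein-coding genes (horizontal), for the 37 DNA replication genes (solid, with dots at the genes with a combined promoter peak) and all protein-coding genes (dashed, with a step where genes without a region tie). The members' curve lies below that of all genes at low percentiles and close to it from the median, 52.2, upward.

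Replicate values at the members are given beside those over all genes, with no test of the difference. Where both replicates listed a region, Spearman's rho between their highest promoter signals was 0.464 over 33 members, beside 0.571 over 11590 genes, given as a description since genes share the 2 libraries. The highest regions of the replicates had summits within 100 bp of each other at 8 of 37 members (21.6%), beside 35.0% of all genes. PolD2 and RnrS were above the 90th percentile in each replicate, while PolE2 had a high place in replicate 2 and a low one in replicate 1.

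The highest promoter region lay downstream of the nearest TSS of the gene at 24 of the 36 members with a region (66.7%), beside 49.9% of all genes with one. Within 200 bp of a TSS were 11 of the 36 (30.6%), beside 28.4% of all genes. The peaks of PolD2, RnrS, Mcm2 and RpA-70 were upstream, and those of geminin and RfC38 downstream.

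**Figure D4:**
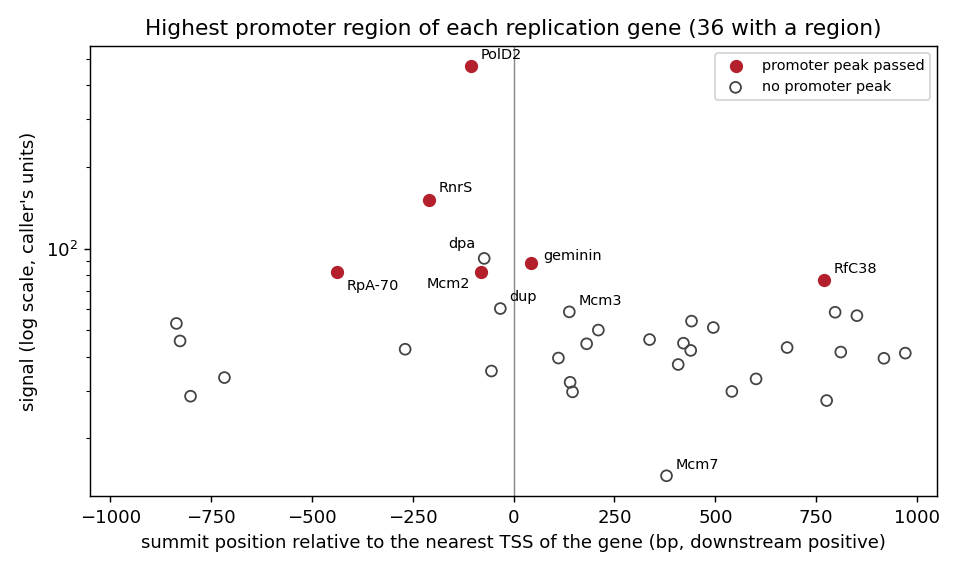
Signal of the highest promoter region of 36 replication genes (vertical, log scale, caller's units) against its summit position relative to the nearest TSS of the gene (horizontal, in bp, downstream positive). Filled points are genes with a combined promoter peak, with summits from 437 bp upstream for RpA-70 to 770 bp downstream for RfC38, and 22 of the 30 genes without one lie downstream.

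Replication genes lay closer to other genes than protein-coding genes did in general. A protein-coding TSS of another gene was within 1 kb at 24 of 37 members (64.9%, interval 47.5% to 79.8%), beside 42.9% of all genes, and a divergent one at 22 (59.5%), beside 33.2%. All 6 genes with a promoter peak were among those 24. A promoter peak was present at 25% of the 24 members with such a neighbour (interval 9.77% to 46.7%), beside 19.9% of all genes with one. It was 0 of 13 members without a neighbour (interval up to 24.7%), beside 9.31% of all genes without one. The part that neighbouring promoters have in these peaks was not tested. The median distance from a TSS to the nearest combined summit was 6436 bp for the members and 12399 bp for all genes. Members had fewer TSSs, 1.19 on average beside 1.41. With 1 TSS, 4 of 30 members had a promoter peak (13.3%), beside 9.79% of all genes with 1 TSS. Their promoters had a median of 34.7% G and C beside 38.0%.

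The promoters of the replication genes were rich in the letters of the DREF and E2F elements, which the chosen list did not use. Promoter windows ran from 250 bases before the gene start to 50 bases from it. The DREF element was in 11 of 37 windows (29.7%, interval 15.9% to 47.0%), beside 9.36% of all protein-coding promoters. The E2F site was in 16 (43.2%, interval 27.1% to 60.5%), beside 6.43%. Both were in the windows of Orc5, PolE2, Prim2, Psf1 and Sld5, which makes 5 members (13.5%) beside 0.588% of all genes.

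Short promoter windows of 4 members without a promoter peak are shown, chosen because they hold a DREF element, alone or with an E2F site. The 201 bases around the printed summits hold neither, but the 2 kinds of window are placed differently and are not a matched comparison. The promoter window of Mcm2 does hold an E2F site, outside its printed summit window, while those of PolD2 and RfC38 hold neither element. All 4 short windows are from the same Release 6 sequence, written 5′ to 3′ on the gene's strand, with capitals marking the DREF element, the E2F site or ACAGTG on either strand. PolA1, with 3 DREF elements, lies at chr3R:21671721-21671970 on the minus strand, and its window starts 220 bases before the gene start. Psf1 at chr3L:1247648-1247827 (minus strand), Orc5 at chr2L:13829687-13829866 (plus strand) and Sld5 at chr3R:26056518-26056697 (minus strand) each start 150 bases before it. Each window ends with the first 30 bases of the gene.
PolA1: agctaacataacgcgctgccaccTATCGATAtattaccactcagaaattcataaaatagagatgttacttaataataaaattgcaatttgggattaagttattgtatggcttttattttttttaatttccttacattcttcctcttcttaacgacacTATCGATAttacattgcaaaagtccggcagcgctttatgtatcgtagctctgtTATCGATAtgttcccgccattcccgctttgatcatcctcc
Psf1: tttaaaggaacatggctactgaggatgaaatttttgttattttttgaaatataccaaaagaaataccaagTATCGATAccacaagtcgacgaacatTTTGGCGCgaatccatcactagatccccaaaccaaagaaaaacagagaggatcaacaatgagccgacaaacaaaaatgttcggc
Orc5: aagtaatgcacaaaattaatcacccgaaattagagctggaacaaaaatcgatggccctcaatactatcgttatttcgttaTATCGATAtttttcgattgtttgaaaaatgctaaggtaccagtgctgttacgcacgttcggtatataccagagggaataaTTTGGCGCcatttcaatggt
Sld5: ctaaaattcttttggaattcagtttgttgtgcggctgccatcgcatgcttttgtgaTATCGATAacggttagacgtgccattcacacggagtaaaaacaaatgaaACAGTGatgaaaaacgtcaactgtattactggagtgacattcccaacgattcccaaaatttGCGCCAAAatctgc
In these windows the DREF elements of PolA1 begin 197, 63 and 10 bases before the gene start, and that of Psf1 80 bases before it. The highest joint region within 1 kb of these genes had its summit outside the printed window, 439 bp downstream of the TSS at PolA1, 269 bp upstream at Psf1, 776 bp downstream at Orc5 and 801 bp upstream at Sld5. Its joint signal was 42.2, 42.6, 27.6 and 28.6 in that order, beside a median of 46.0 over the 12529 protein-coding genes with a region. In replicate 2, PolA1 (34.0, percentile 75.8) and Psf1 (32.0, percentile 71.9) were above the median of 25.9, and Orc5 (23.1) and Sld5 (21.5) were below it. In replicate 1, PolA1 had no region listed. Psf1 (19.8, percentile 39.4), Orc5 (12.3) and Sld5 (22.2) were below the replicate 1 median of 24.9.

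None of the 11 members with a DREF element in the promoter window had a promoter peak (interval up to 28.5%), whereas 249 of all 1305 genes with one did (19.1%). The members were Gnf1, Orc2, Orc5, PCNA, PolA1, PolA2, PolE2, Prim2, Psf1, Psf3 and Sld5. Of the 16 members with an E2F site, Mcm2 and RnrS had a peak, which makes 12.5% (interval 1.55% to 38.3%) beside 15.1% of all genes with the site. Of the 15 members with neither, 4 had a peak (26.7%, interval 7.79% to 55.1%), beside 13.2% of all genes with neither. The median percentile was 47.5 for the members with a DREF element, beside 57.7 for all genes with it, and 48.8 for the members with an E2F site, beside 54.0. These are counts of a few genes, and no difference between them was tested.

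**Figure D5:**
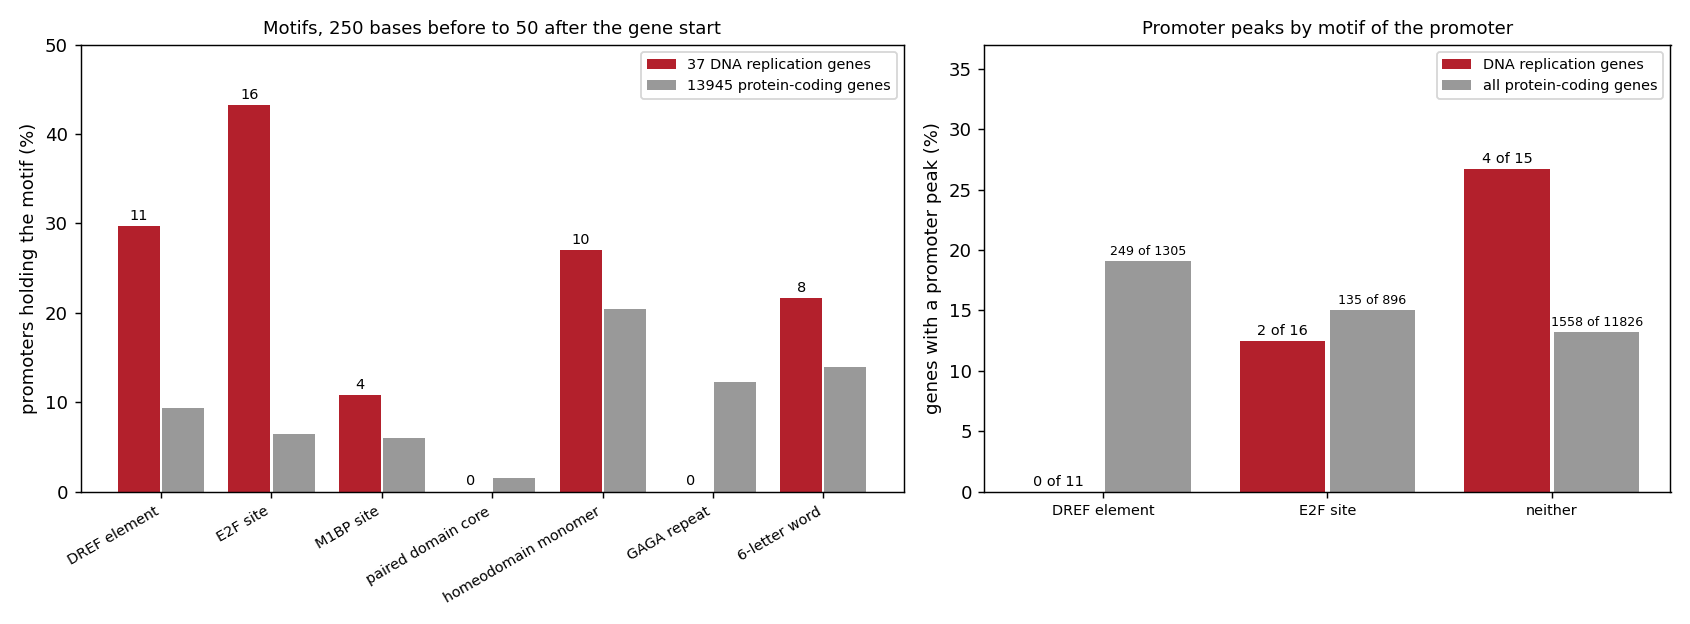
Left, promoters holding each of 7 motifs, in percent (the 6-letter word is ACAGTG), for the 37 DNA replication genes (red, with counts) and 13945 protein-coding genes (grey). Right, genes with a combined promoter peak, in percent, among those whose promoter holds the DREF element, the E2F site or neither; the members' bars are 0 of 11, 2 of 16 and 4 of 15.

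The other motifs gave lower counts. The paired domain core, a short form of what the gsb family of domains is known to bind, was in 0 of 37 member promoters (interval up to 9.49%), beside 1.51% of all, and the homeodomain monomer was in 10 (27.0%) beside 20.4%. The GAGA repeat (GAGAGA) was in 0 of 37, beside 12.3%. The M1BP site was in 4 (10.8%) beside 6.05%. ACAGTG, which earlier results of these same data had put first among 6-letter words at peaks, was in 8 (21.6%) beside 13.9%. Within 100 bp of the 5 member summits, ACAGTG was present at geminin and Mcm2, and none of the other motifs was present at any. Over all 2877 combined summits ACAGTG was present at 19.9% and the DREF element at 2.57%. A match is a description of letters, and its absence from a window says nothing of the factor.

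A list of 40 other replication and S phase genes, drawn up by name, gave 5 with a promoter peak (12.5%, interval 4.19% to 26.8%), beside the same 13.8% of all genes. These were Dp, the partner of E2F, with joint signals of 279.6, 177 and 113 at 3 peaks; Top1, a DNA topoisomerase, with 229; chif, an activator of the replication kinase Cdc7, with 112; spel1, a mismatch repair gene, with 101; and Rif1, a regulator of replication timing, with 63.0. The median percentile of these 40 genes was 69.7 in the joint list, beside 52.2 for the 37 members. In replicate 1 the medians were 64.5 and 43.9. In replicate 2 they were 57.2 and 58.4, so the gap was absent from that library. No difference was tested.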

How the data were processed

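The authors deposited, per the file headers and labels, narrowPeak lists on dm6: ranked and thresholded lists for each replicate and for both together. More than 1 ranked list was given for both replicates together. The joint ranked list used here is the one that holds every region of the combined list. The global IDR values quoted are from that list. Column values used are the deposited signal, the deposited score, and the −log10 of the global IDR; a further deposited column of other kind (the summit offset) gave positions. The record that accompanies the deposited files lists, for the ranked lists of both replicates, the alignments and 1 further file shared by both, whose content the labels do not state. The aligner and caller are not named in these sources. Coordinates are 1-based.

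From these, summits were joined to TSSs of Ensembl release 115 (Release 6) within 1000 bp, and promoter sequence was read from the RefSeq copy of Release 6. Counts and percentiles were computed in Python 3.11.15 with pandas 2.3.3 and scipy 1.17.1. The pairing of summits with TSSs was checked on simulated peaks. Named in full were members with a combined peak and up to 8 further members of highest signal. Windows, lists, thresholds and single replicates were varied. The members, lists and motifs were chosen with earlier results of these data known. The read depth per sample is unknown, so precision could not be weighted by it. Replicates are biological, per the labels, but no test over samples was made with 1 group.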

Additional observations from a re-analysis of the deposited data

How the results depend on the processing

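The 6 members with a promoter peak fell to 3 with a 200 bp window, to 3 in the conservative list, to 2 at a global IDR of at most 0.001 and to 2 among the combined peaks above the median signal, and to between 2 and 3 with 1 replicate left out. The share of all genes moved as well, to 7.63%, 13.2%, 7.21%, 8.63%, 9.46% and 9.89%. With 500 bp, the gene start only, or each shared peak counted once (added after the data were seen), the count was 5, and with 2 kb or any overlap it was 7. PolD2 and RnrS passed in both replicates in each of the 3 alternatives tried for the count of members passing in both. Among these, the 500 bp and 2 kb windows could not drop them, since their summits lie 105 and 209 bp from a TSS. A 200 bp window was not tried for that count. In the combined list it kept PolD2, Mcm2 and geminin and lost RnrS. The median percentile of the members was 23.7 with a 200 bp window, the place where genes with no region tie, and between 43.9 and 58.4 with 1 replicate left out. Of 98 percentiles of named members under the alternatives, 61 moved by no more than the spread between replicates. That spread is the standard deviation of a gene's 2 replicate percentiles, so it is wide where the replicates differ. The single-replicate percentiles that define the spread make up 28 of the 98, with 17 inside it. Of the other 70, 44 were inside it. The other 40 genes gave 5 or 6 with a peak, and 12 members had a DREF element within 500 bp of any TSS. Depth is unknown, so a peak missing from a list cannot be read as absence of binding. No paired analysis was possible because there is 1 group.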
